A study of Mus musculus with 12 samples.

Results

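The 84 genes described here are the well-expressed Zfp genes of the mouse hypothalamus, named for zinc finger protein. They were chosen by name and by level: the symbol is Zfp, a number and at most 1 further letter, and the raw counts summed over 12 libraries reached 600. They make up 84 of the 359 Zfp symbols and of the 24020 genes in the count table, and 275 Zfp symbols fell under the threshold. A further 5 symbols marked as duplicates or pseudogenes were left out. The study sequenced hypothalamus RNA from mice of the Wfs1 mutant strain Wfs1tm1Koks, with 4 wild-type, 4 heterozygous and 4 homozygous individuals and 1 library from each. Wolframin, the product of Wfs1, sits in the membrane of the endoplasmic reticulum, and the labels name the mutated gene in all 3 groups. Sex, age, and how the wild-type and mutant animals were related are not given in the labels used here. One homozygous library carries the number 5, for which no label exists, and it was placed by its genotype alone.

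A classical zinc finger is a short protein loop in which a pair of cysteines and a pair of histidines hold a zinc ion, and rows of such fingers read DNA bases or bind RNA. Many Zfp proteins also carry a KRAB box, a domain that recruits the corepressor KAP1 (Trim28) and with it histone deacetylases, H3K9 methyltransferases and heterochromatin protein 1. KRAB zinc finger genes lie in clusters of related copies and are best known for silencing transposable elements, while Zfp proteins without the box include regulators of neural development, splicing factors and spindle proteins.

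The finger repeat is shown for 4 genes that rose most clearly in homozygous mice (Zfp612, Zfp37, Zfp329 and Zfp711) and for 2 GC-rich genes that did not rise (Zfp574 and Zfp423), since base composition moves with the changes described later. Each is the coding strand of 1 finger, 5′ to 3′, from GENCODE M21 transcripts on GRCm38. Capitals mark the codons of the 2 cysteines and 2 histidines, which are spaced by 2, 12 and 3 residues.
Zfp612: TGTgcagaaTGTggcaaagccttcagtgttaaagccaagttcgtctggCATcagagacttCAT
Zfp37: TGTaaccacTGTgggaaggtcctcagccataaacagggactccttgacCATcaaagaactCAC
Zfp329: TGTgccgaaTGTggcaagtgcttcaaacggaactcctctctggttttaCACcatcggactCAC
Zfp711: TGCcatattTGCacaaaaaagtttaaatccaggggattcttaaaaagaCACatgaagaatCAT
Zfp574: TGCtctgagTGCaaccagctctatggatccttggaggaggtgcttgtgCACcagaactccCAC
Zfp423: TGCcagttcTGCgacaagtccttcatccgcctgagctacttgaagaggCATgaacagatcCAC
All 6 have 63 bases. The Zfp711 finger (codons 429 to 449) had the lowest GC content, 31.7%, and the Zfp574 finger (codons 18 to 38) the highest, 55.6%. Those of Zfp612, Zfp37 and Zfp329 stood at 46%, 49.2% and 50.8%, and that of Zfp423 at 52.4%.

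Across the 84 genes, a search of the longest coding sequence of each gene found at least 1 such finger in 82, with a median of 9 and at most 36 (Zfp142). None was found in Zfp365 or Zfp259. A KRAB box was found in 29 genes by a search that can miss divergent boxes. The transcripts were poor in G and C, with a median GC content of 43.6% against 49.8% over all tested genes.

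The libraries differed in more than genotype. Total counts were 979394 to 2330872 per library, so counting error is large for the weaker genes. Wfs1 separated the groups without overlap, at 114 to 167 CPM (counts relative to library size, scaled with TMM factors) in wild-type, 81.8 to 103 in heterozygous and 14.8 to 20.1 in homozygous libraries. Rn45s, the ribosomal RNA precursor, stood at 958 to 1983 CPM in wild-type and 352 to 788 CPM in heterozygous libraries. It was 316 and 352 CPM in homozygous replicates 1 and 2 and 95.6 and 85.8 CPM in homozygous replicates 4 and 5, which stand apart. The slope of a library's log2 deviations on transcript GC content moved the same way. It was 0.026 to 0.33 per 10 points of GC in wild-type and -0.011 to 0.21 in heterozygous libraries. Homozygous replicates 1 and 2 had slopes of -0.029 and 0.017, and homozygous replicates 4 and 5 had -0.47 and -0.52. Results are therefore given with and without homozygous replicates 4 and 5. P-values measure the spread between these individuals.

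Markers of the tissue and of other cells were checked in the same fit. All 12 hypothalamic markers were in the table, their summed level was 938 to 1340 CPM in wild-type and 1006 to 1362 CPM in homozygous libraries, and of 9 tested Six3 rose and Pomc and Trh fell. Of 4 neuronal markers Snap25 and Stmn2 rose, with a summed level of 3858 to 4968 CPM in wild-type, 4613 to 5360 CPM in heterozygous and 4870 to 7087 CPM in homozygous libraries. Of 4 astrocyte markers Aqp4 and Aldoc rose and Gfap fell (summed 3509 to 4559, 3803 to 4210 and 4474 to 5893 CPM). One of 4 oligodendrocyte markers, Mag, fell (2587 to 3358, 2031 to 3084 and 1538 to 2635 CPM), as did 1 of 3 tested endothelial markers, Vtn (106 to 128, 98.4 to 116 and 62.1 to 93.9 CPM), and 1 blood marker, Beta-s (16.9 to 30.4, 10.3 to 23.1 and 3.39 to 14.4 CPM). One of 4 thalamic markers, Rora, rose (109 to 172, 125 to 333 and 123 to 259 CPM). None of the tested markers of microglia, choroid plexus or telencephalon was called. None of the 4 pituitary markers passed the filter for testing, and 2 of them, Gh and Prl, were at 0 in all libraries. The pituitary sum was 1.46 to 2.85 CPM in wild-type, 1.93 to 2.2 CPM in heterozygous and 1.13 to 9.89 CPM in homozygous libraries. The part of these cell types in the Zfp results was not tested. In whole tissue, fewer cells of a type and less RNA per cell cannot be told apart.

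The summed count chose the members, so their levels are a description. Together they held 0.8252% of all counts and 72.22% of the counts of all Zfp symbols. Just inside the threshold lay Zfp760 with 601 counts over the 12 libraries, Zfp711 with 615 and Zfp2 with 626. Just outside lay Zfp869 with 573, Zfp622 with 572 and Zfp516 with 547. The most counted genes were Zfp106 with 13223, Zfp871 with 11058, Zfp612 with 8637 and Zfp644 with 7265, and these 4 held 26.8% of the members' counts.

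Per length of transcript, the order in wild-type mice was led by Zfp207, which binds the checkpoint protein Bub3 at the spindle, at 113 ± 11 CPM per kb (mean ± SD, n = 4). The length is that of the transcript with the longest coding sequence. For Zfp207 it is 1562 bases, of which 1485 are coding, so its lead depends on the transcript taken. Next in this order was Zfp106, an RNA-binding protein needed by motor neurons, at 64.3 ± 3.19 CPM per kb. The next 3 did not differ beyond their spread: Zfp612 at 57.4 ± 8.28, Zfp644 at 57.1 ± 6.94 and Zfp365 at 55.6 ± 12.8 CPM per kb. The median of the 84 genes was 11.4 CPM per kb. At the low end stood Zfp192 (5.48 ± 0.666), Zfp26 (5.44 ± 0.83), Zfp518a (5.13 ± 0.633), Zfp652 (4.80 ± 0.769) and Zfp711 (3.98 ± 1.01 CPM per kb), whose neighbours in the order overlap within their SDs.

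Summed over the 84 genes, the level was 7461, 7441, 6614 and 7233 CPM in wild-type replicates 1, 2, 3 and 5. It was 8315, 7555, 8593 and 8327 CPM in heterozygous replicates 1 to 4, and 9046, 8920, 10848 and 10678 CPM in homozygous replicates 1, 2, 4 and 5. The 3 genotypes did not overlap in this sum, and the heterozygous libraries lay between the others. Averaged over 4 libraries, the sums came to 7187 ± 396 in wild-type, 8198 ± 447 in heterozygous and 9873 ± 1031 CPM in homozygous mice (mean ± SD). The 29 genes with a KRAB box summed to 1865 to 2171 CPM in wild-type and 2134 to 2786 CPM in heterozygous libraries, and these ranges overlapped. In homozygous libraries the KRAB genes summed to 2859 to 4019 CPM. Both sums include members that would have stayed under 600 counts at their wild-type level. The count rule itself therefore favours higher sums in the mutant libraries.

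**Figure D1:**
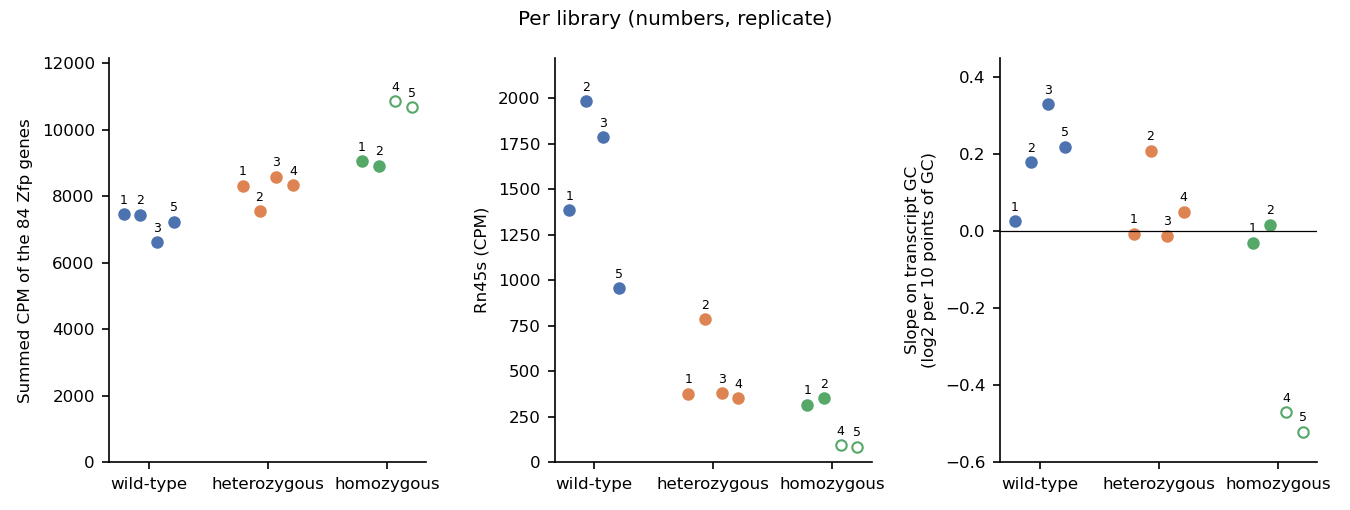
Each point is 1 library, numbered by replicate, in columns by genotype; the panels show the summed CPM of the 84 Zfp genes, the CPM of Rn45s, and the slope of the library's log2 deviations on transcript GC content. Homozygous replicates 4 and 5 (open) have the highest Zfp sums (10848 and 10678 CPM), the lowest Rn45s (95.6 and 85.8 CPM) and the lowest slopes (-0.47 and -0.52).

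Between homozygous and wild-type mice, 31 of the 84 genes rose, 1 fell and 52 were not called, at an edgeR adjusted p under 0.05 over all 10737 genes tested. All 84 had passed the filter on low counts. The count rule itself favours genes that rose: at their wild-type level in all 12 libraries, 9 members would have stayed under 600 counts. These were Zfp711, Zfp780b, Zfp87, Zfp760, Zfp952, Zfp868, Zfp239, Zfp2 and Zfp157, and 7 of them are among the 31. Of the other 75 members, 24 rose and 1 fell, with a median log2 fold change of 0.19. Conversely, 3 Zfp symbols outside the set (Zfp295, Zfp395 and Zfp687) would have reached 600 counts at their wild-type level. The 31 are 36.9% of the members, where 13.7% of all tested genes were called higher and 11.6% were called lower. The median log2 fold change of the members was 0.30 against -0.03 over all tested genes, with a range of -0.64 to 1.78, and 75% of members against 47.9% of all genes had a positive value. In 28 members the homozygous libraries all lay above the wild-type ones, where the background was 11.8%, and 27 of the 31 called genes were among these 28. The converse held for 2 members, Zfp532 and Zfp704, against a background of 11.8%.

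Homozygous replicates 4 and 5 were the 2 highest libraries in 24 of the 31 genes that rose. Without them, 17 members were called higher and none lower, where 7.15% of all tested genes were called higher and 4.71% lower. Of these 17, 16 were among the 31: Zfp711, Zfp612, Zfp37, Zfp804a, Zfp800, Zfp329, Zfp780b, Zfp60, Zfp87, Zfp952, Zfp788, Zfp871, Zfp719, Zfp664, Zfp644 and Zfp106. The median log2 fold change of all members was then 0.21. When each of the 12 libraries was left out in turn, 25 of the 31 genes were called every time. For neither the 24 nor the 25 was a share over all called genes taken, so neither is shown to be particular to Zfp genes.

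**Figure D2:**
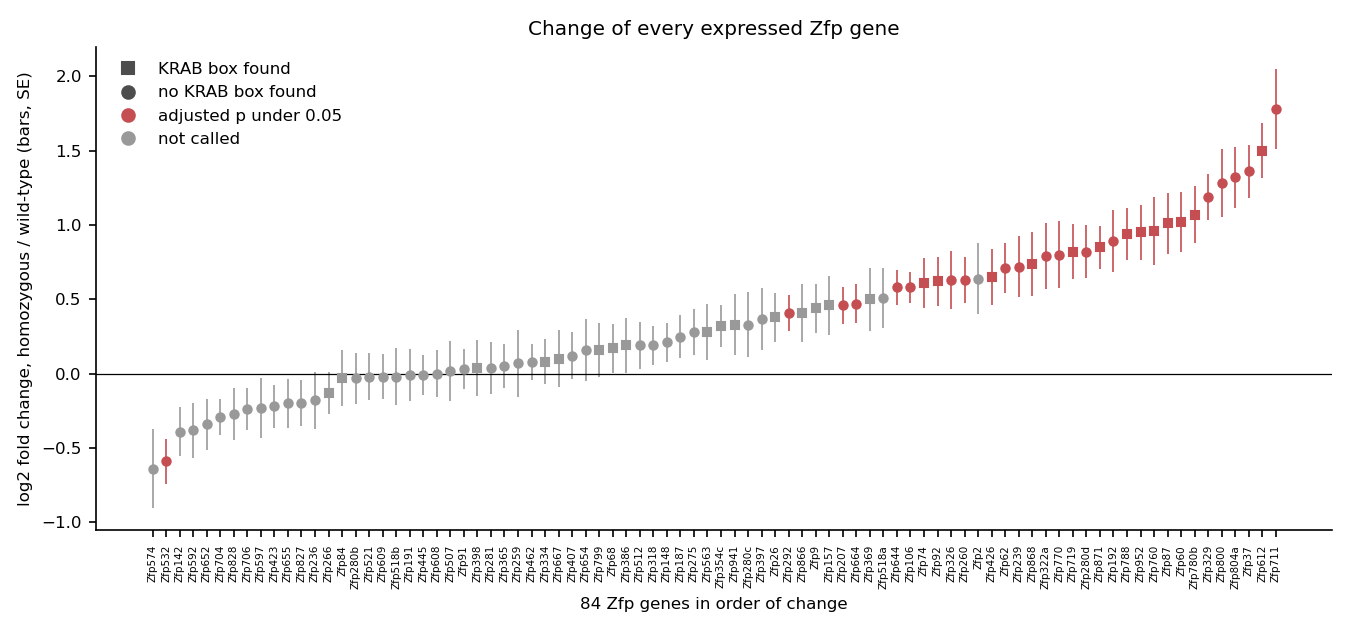
Log2 fold change of homozygous over wild-type libraries (y axis, bars are SE) for all 84 Zfp genes in order (x axis); squares have a KRAB box, and red marks an edgeR adjusted p under 0.05. The values run from -0.64 (Zfp574) to 1.78 (Zfp711), with 31 genes called higher and 1, Zfp532, called lower.

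The largest change was that of Zfp711, an X-linked gene (chrX:112600526-112635070) whose human counterpart is mutated in intellectual disability. Wild-type libraries held 19.1, 20.9, 10.9 and 18.0 CPM, heterozygous ones 39.2, 25.4, 24.9 and 29.5 CPM and homozygous ones 38.9, 46.2, 61.8 and 97.1 CPM. Wild-type libraries lay below all others, and the homozygous group was spread widely with replicate 5 on top. This was a log2 fold change of 1.78 (SE 0.269, edgeR adjusted p = 7.07e-05), or 3.43-fold. Without homozygous replicates 4 and 5 it was 1.33. This was a thinly counted gene, with 15 to 29 raw counts in the wild-type libraries and 58 to 103 in the homozygous ones, and it reached the threshold of 600 only through the mutant libraries. The finger printed for it was the poorest in GC.

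Zfp612 (chr8:110079746-110092741, KRAB box, 16 fingers) was both among the most abundant members and among those that moved most. Wild-type libraries held 295, 279, 224 and 320 CPM, heterozygous libraries 464, 322, 527 and 438 CPM, and homozygous libraries 595, 556, 1002 and 1014 CPM. The 3 genotypes did not overlap, and homozygous replicates 4 and 5 lay far above replicates 1 and 2. Between homozygous and wild-type mice, its log2 fold change was 1.50 (SE 0.183, edgeR adjusted p = 8e-06), and 1.05 without those 2 libraries.

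Zfp37 (chr4:62189540-62231047, 12 fingers) was at 63.1, 65.6, 43.0 and 80.2 CPM in wild-type, 88.1, 83.0, 119 and 109 CPM in heterozygous, and 158, 121, 189 and 184 CPM in homozygous libraries. Here too the genotypes were ordered without overlap. The log2 fold change was 1.36 (SE 0.181, edgeR adjusted p = 1.79e-05), and 1.14 without homozygous replicates 4 and 5. Zfp329 (chr7:12804977-12818858, 12 fingers) followed the same order, at 57.9, 63.7, 43.7 and 51.6 CPM, then 93.2, 84.3, 74.7 and 76.8 CPM, then 115, 105, 132 and 147 CPM. Its log2 fold change was 1.19 (SE 0.155, edgeR adjusted p = 1.41e-05), and 1.03 without the 2 libraries. The homozygous libraries of Zfp329 were closer to each other than those of Zfp612.

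Zfp804a (chr2:82053222-82259879), a single-finger gene whose human counterpart is a risk gene for schizophrenia, stood at 60.9, 54.2, 35.0 and 42.9 CPM in wild-type, 78.4, 58.8, 64.5 and 91.2 CPM in heterozygous, and 91.9, 92.5, 162 and 138 CPM in homozygous libraries. Wild-type and heterozygous libraries overlapped, while the homozygous ones lay above both. Its log2 fold change was 1.32 (SE 0.207, edgeR adjusted p = 0.000115). Zfp800 (chr6:28239927-28398005) was at 46.9, 32.3, 23.3 and 42.3 CPM in wild-type and 63.7, 71.4, 103 and 124 CPM in homozygous libraries, with a log2 fold change of 1.28 (SE 0.228, edgeR adjusted p = 0.000362). Its heterozygous libraries, at 57.2, 40.9, 61.5 and 41.3 CPM, overlapped with the wild-type ones.

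**Figure D3:**
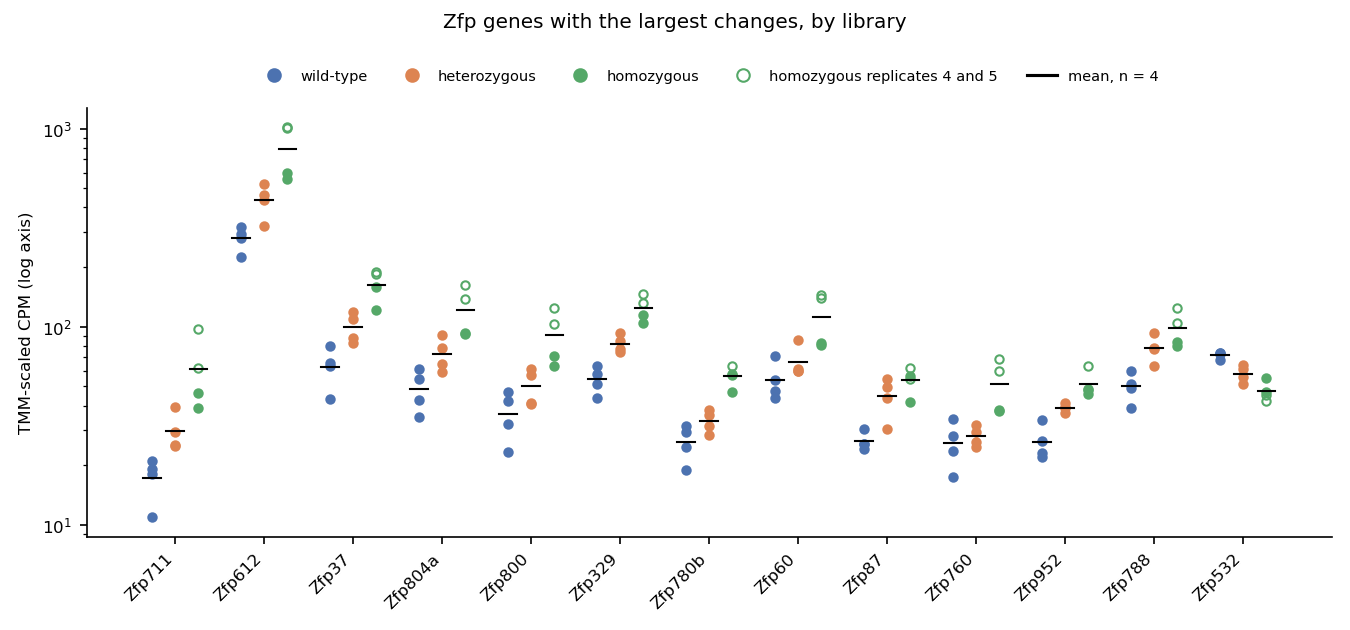
CPM per library (log axis) of the 12 Zfp genes that rose most between wild-type and homozygous mice and of Zfp532, the gene that fell; colours are genotypes, open points homozygous replicates 4 and 5, and bars the mean of 4 libraries. Every homozygous library lies above every wild-type library in the 12 genes that rose, and below in Zfp532.

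Of the 12 genes that rose most, a KRAB box was found in 7: Zfp612, Zfp780b, Zfp60, Zfp87, Zfp760, Zfp952 and Zfp788. Of these 7, Zfp780b, Zfp87, Zfp760 and Zfp952 passed the count rule only through the mutant libraries where they are higher. Zfp780b and Zfp60 lie in the same stretch of chromosome 7, between positions 27731389 and 27979171, with 2 Zfp genes under the count threshold, Zfp59 and Zfp607, between them, and had log2 fold changes of 1.07 and 1.02. Zfp780b went from 26.2 ± 5.62 CPM in wild-type to 56.1 ± 6.89 CPM in homozygous mice, but 21.6% of its 75-base runs occur in a transcript of another gene, so its counts may be shared. Zfp60 went from 54.1 ± 12.1 to 112 ± 34.7 CPM, and its log2 fold change was 0.60 without homozygous replicates 4 and 5. Zfp87 (log2 fold change 1.01), Zfp952 (0.95) and Zfp788 (0.94) were each called with and without those 2 libraries. Zfp760 (0.96) lost its call without them, at a log2 fold change of 0.57 and an edgeR adjusted p of 0.0998.

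As a class, 13 of the 29 genes with a KRAB box rose (44.8%, beside 13.7% of all tested genes) and none fell (beside 11.6%), with a median log2 fold change of 0.46 and 27 positive values. Of the 55 genes in which no box was found, 18 rose (32.7%) and 1 fell (1.82%), with a median of 0.16. The search can miss boxes, so these 55 may hold KRAB genes. One case is Zfp192, among the 18, whose other name Zkscan8 refers to a KRAB box. Without homozygous replicates 4 and 5, 9 KRAB genes and 8 of the others rose, beside 7.15% of all genes. The difference between the classes was not tested. The KRAB genes were also poorer in GC, with a median of 42.5% against 45.7%. All tested genes were split into 3 classes of about equal size by GC content, with bounds at 46.9% and 52.9%. Among the members in the GC-poor class, the medians were 0.46 in the 25 KRAB genes and 0.46 in the 30 others, with 12 and 14 called higher. By number of fingers, 3 of 10 genes with at most 2 fingers rose, 5 of 22 with 3 to 7, 12 of 29 with 8 to 12, and 11 of 23 with 13 or more, beside the same 13.7%. Without homozygous replicates 4 and 5 these counts were 1, 4, 5 and 7, beside 7.15% of all genes. The class counts include members that passed the count rule only through the mutant libraries. With a KRAB box these were Zfp780b, Zfp87, Zfp760, Zfp952, Zfp868 and Zfp157, and all but Zfp157 rose. Without a box found they were Zfp711, Zfp239 and Zfp2, and all but Zfp2 rose. All of them but Zfp239 have 8 or more fingers.

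Genes in the same neighbourhood did not always share a call. Counting members within 0.5 Mb of each other, 24 lay in 10 groups, of which 6 held called and uncalled genes, 1 held only genes called higher (Zfp60 and Zfp780b) and 3 held none. In the group on chromosome 17, Zfp871 (log2 fold change 0.85) and Zfp952 (0.95) were called and Zfp799 (0.16) and Zfp563 (0.28), which lie in the same group, were not. On chromosome 9, Zfp426 (0.65) was called between Zfp26 (0.38) and Zfp266 (-0.13), which were not. The member closest to Wfs1 on chromosome 5 was Zfp518b, 1.68 Mb away, with a log2 fold change of -0.02.

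Base composition ran alongside these changes. Of the 16 members with a GC content under 40%, 10 rose. Of the 12 members over 50%, none rose and 9 had a negative log2 fold change. Among all tested genes the same trend was present: 25.6% of the GC-poor class were called higher, with a median log2 fold change of 0.23, and 3.95% of the GC-rich class, with a median of -0.34. Within the GC-poor class, 47.3% of the 55 members were called higher, with a median of 0.46. In the middle class, 20% of the 25 members were called higher against 11.7% of all genes, with medians of 0.04 and -0.02. The 4 members in the GC-rich class, Zfp574, Zfp423, Zfp142 and Zfp236, had a median of -0.30.

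With a per-library correction for GC content, 22 of the 31 genes were still called higher, 5 members were called lower (Zfp266, Zfp532, Zfp655, Zfp704 and Zfp706) and the members' median was 0.10. Over all genes, 12.2% were then called higher and 8.83% lower. When the library's GC slope was a term of the model, an alternative chosen after seeing the data, 5 genes were called higher (Zfp106, Zfp329, Zfp37, Zfp612 and Zfp711) and none lower, beside 3.19% and 1.11% of all genes. The slopes of the wild-type and homozygous libraries do not overlap, so genotype and base composition cannot be fully told apart.

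**Figure D4:**
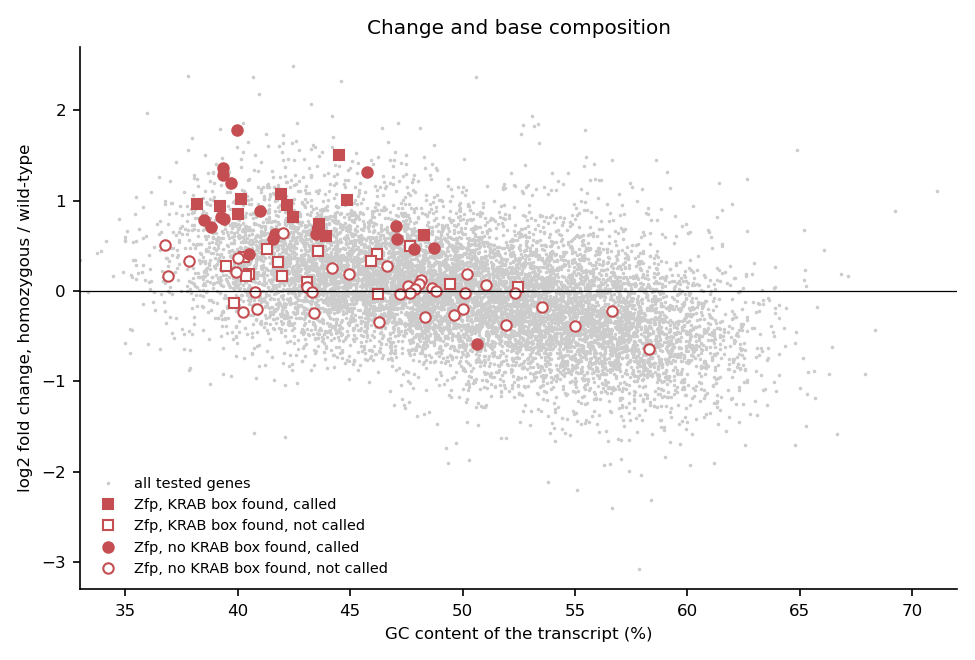
Log2 fold change of homozygous over wild-type libraries (y axis) against GC content of the transcript (x axis) for the Zfp genes (red; squares with a KRAB box, filled if called) and for all tested genes (grey). Genes called higher have a GC content of 38.2% to 48.8%, and none of the 12 Zfp genes over 50% rose.

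The role groups below are small and were revised after the counts were read, so their counts are a description. They stand beside 13.7% of all genes higher and 11.6% lower. Zfp106 and Zfp326, the members placed under RNA binding, both rose. Zfp106 (chr2:120506820-120563843) was at 584, 595, 544 and 613 CPM in wild-type, 693, 655, 824 and 787 CPM in heterozygous, and 839, 876, 945 and 843 CPM in homozygous libraries. The genotypes did not overlap, and homozygous replicate 5 lay among the others rather than above them. The log2 fold change was 0.58 (SE 0.105, edgeR adjusted p = 0.000388), and 0.56 without homozygous replicates 4 and 5. A gene on the opposite strand, Gm26899, shares 24.7% of the 75-base runs of Zfp106, and their reads cannot be told apart without strand. Zfp326, a subunit of the DBIRD complex that couples splicing to RNA polymerase II, had a log2 fold change of 0.63 (SE 0.192, edgeR adjusted p = 0.0189). Its wild-type libraries, at 49.9, 62.8, 44.4 and 44.1 CPM, overlapped with the homozygous ones at 67.1, 60.2, 90.6 and 96.0 CPM, and the call was lost without homozygous replicates 4 and 5 (log2 fold change 0.35, edgeR adjusted p = 0.257).

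Of the spindle proteins, Zfp207 rose from 168, 191, 157 and 191 CPM in wild-type to 207, 233, 259 and 280 CPM in homozygous libraries. The groups did not overlap, the log2 fold change was 0.46 (SE 0.123, edgeR adjusted p = 0.00789), and without homozygous replicates 4 and 5 it was 0.33 (edgeR adjusted p = 0.0983). Zfp828, also named Champ1, which helps to attach microtubules to kinetochores, had a log2 fold change of -0.27 (SE 0.173, edgeR adjusted p = 0.264). Neither the ubiquitin ligase Zfp91 nor Zfp259, also named Zpr1, was called, at 0.03 (SE 0.135) and 0.07 (SE 0.226).

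Of the 12 regulators of neural development and neuronal function, 3 rose (25%, beside 13.7% of all tested genes), none fell (beside 11.6%) and the median log2 fold change was -0.01. Without homozygous replicates 4 and 5, 2 of them rose, beside 7.15% of all genes tested in that setting. Beside Zfp711 and Zfp804a, the third was Zfp292, first known as a transcription factor of the growth hormone gene. It stood at 215, 204, 166 and 183 CPM in wild-type and 239, 247, 295 and 236 CPM in homozygous libraries, without overlap. Its log2 fold change was 0.41 (SE 0.122, edgeR adjusted p = 0.0168), and 0.35 without homozygous replicates 4 and 5 (edgeR adjusted p = 0.0748).

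The other 9 were not called. Among them were Zfp423 and Zfp521, related many-fingered proteins that bind EBF transcription factors. Zfp423 stood at 107, 108, 101 and 104 CPM in wild-type and 79.1, 113, 79.9 and 86.9 CPM in homozygous libraries, with a log2 fold change of -0.22 (95% interval -0.51 to 0.08). Zfp521 stood at 70.4, 70.4, 62.7 and 65.3 CPM and at 73.8, 72.3, 70.0 and 44.0 CPM, with a log2 fold change of -0.02 (95% interval -0.35 to 0.31). Both ranges overlapped, and the homozygous range of Zfp521 was widened by replicate 5 alone.

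For 6 uncalled members the interval lay closest to 0: Zfp462, Zfp91, Zfp445, Zfp521, Zfp608 and Zfp609. Zfp462, a chromatin regulator whose human counterpart is mutated in a developmental disorder, had a log2 fold change of 0.08 (95% interval -0.16 to 0.33). Zfp609, which acts with the cohesin loader Nipbl in cortical neurons, had -0.02 (-0.33 to 0.29), and its relative Zfp608 had 0.00 (-0.32 to 0.33). Zfp445, which keeps genomic imprints, had -0.01 (-0.28 to 0.27). Changes inside these intervals were not detectable with these libraries.

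The remaining neural regulators were Zfp365 (0.05), Zfp191 (-0.01), needed for myelination, Zfp704 (-0.29) and Zfp142 (-0.39). Zfp704 was at 147, 170, 160 and 157 CPM in wild-type and 125, 132, 137 and 124 CPM in homozygous libraries, and these ranges did not overlap, yet its edgeR adjusted p was 0.0836. For Zfp142, which had 36 fingers, the homozygous libraries (71.8, 74.5, 68.4 and 67.7 CPM) overlapped with the wild-type ones (63.1, 97.0, 114 and 98.2 CPM) through wild-type replicate 1 alone (edgeR adjusted p = 0.0819).

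**Figure D5:**
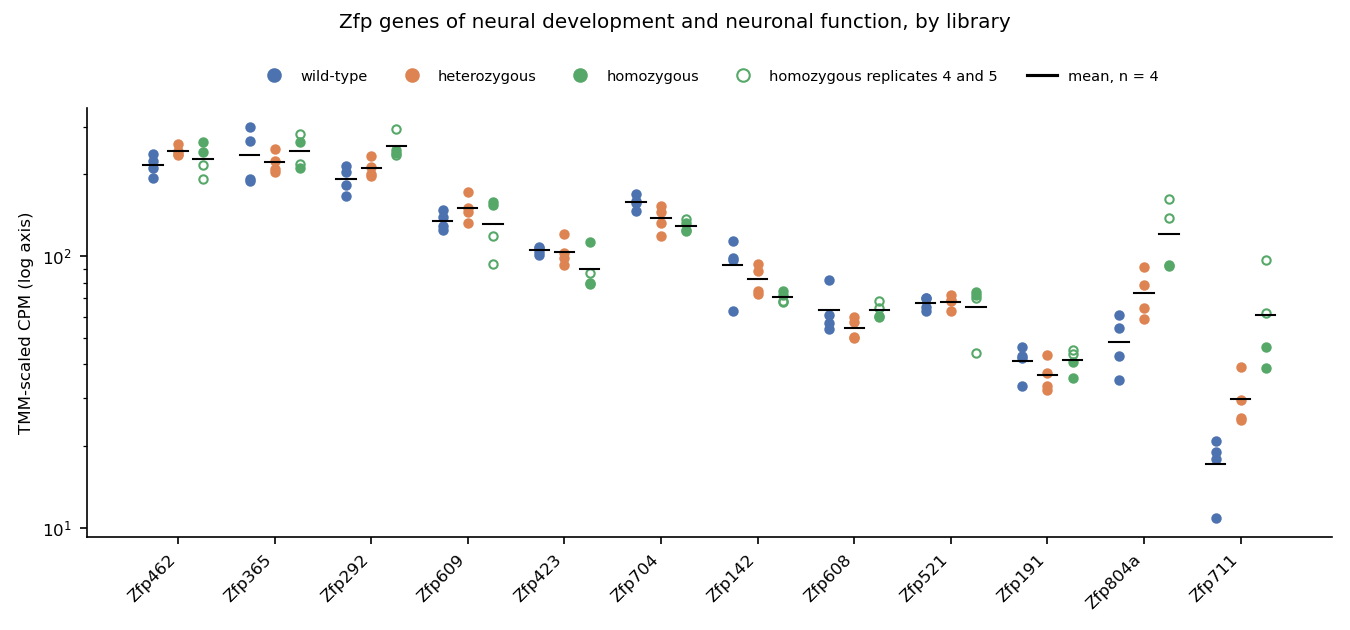
CPM per library (log axis) of the 12 Zfp genes of neural development and neuronal function; colours are genotypes, open points homozygous replicates 4 and 5, and bars the mean of 4 libraries. Zfp292, Zfp804a and Zfp711 rose, while the homozygous points of Zfp462, Zfp609, Zfp608 and Zfp521 overlap with the wild-type ones.

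Of 5 general regulators of transcription and chromatin, 1 rose and 1 fell. Zfp644, a partner of the H3K9 methyltransferases G9a and GLP, was at 353, 362, 273 and 333 CPM in wild-type, 357, 382, 429 and 406 CPM in heterozygous, and 446, 458, 546 and 527 CPM in homozygous libraries. Homozygous libraries lay above all others. For Zfp644 the log2 fold change was 0.58 (SE 0.118, edgeR adjusted p = 0.00114), and 0.46 without homozygous replicates 4 and 5. Zfp532, which forms a complex with Zfp592 and Zfp687, was the member that fell.

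Zfp532 stood at 72.6, 67.6, 73.6 and 73.3 CPM in wild-type, 61.1, 63.8, 55.7 and 51.2 CPM in heterozygous, and 46.9, 55.2, 42.0 and 45.2 CPM in homozygous libraries. Wild-type libraries lay above all others, and heterozygous and homozygous ranges overlapped. The log2 fold change was -0.59 (SE 0.151, edgeR adjusted p = 0.00653), and -0.48 without homozygous replicates 4 and 5, which was not called (edgeR adjusted p = 0.0683). Genes on the opposite strand share 36.1% of its 75-base runs, so this gene is uncertain. Its partner Zfp592 had -0.38 (SE 0.184, edgeR adjusted p = 0.132), with 74.8, 52.3, 61.9 and 66.5 CPM in wild-type and 61.0, 52.1, 45.3 and 35.0 CPM in homozygous libraries. Zfp148 and Zfp281, factors that bind GC-rich promoters, had 0.21 and 0.04 and were not called.

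No member was called between heterozygous and wild-type mice in the main edgeR fit, where 0.512% of all tested genes were called higher and 0.0838% lower. At an unadjusted p under 0.05 in the edgeR test, 18 members were higher, where the background was 7.75%, and 1 was lower. The share of all genes lower at this p was not taken, so the 1 has no background. DESeq2 called 7 members higher, beside 3.63% of its tested genes, and limma-voom 10, beside 2.38%. With only the 2 genotypes fitted, edgeR called 9, beside 2.56%, and without homozygous replicates 4 and 5 also 9, beside 2.63%. Without the filter on low counts it called 7, beside 1.26%. In the main fit the median log2 fold change was 0.15 against -0.01 over all tested genes, with a range of -0.31 to 0.79. In 13 members all heterozygous libraries lay above all wild-type ones, against a background of 4.77%, and in 1, Zfp532, they lay below, against 4.57%. The members examined here include the 9 that passed the count rule only through the mutant libraries.

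Zfp711 had the largest heterozygous value, 0.79 (edgeR adjusted p = 0.193), followed by Zfp87 at 0.74 (edgeR adjusted p = 0.0962). Both passed the count rule only through the mutant libraries. Zfp329, with 0.61 (edgeR adjusted p = 0.0713), Zfp612 with 0.64 and Zfp37 with 0.65 (edgeR adjusted p = 0.103 for both) did not pass either. In all 31 genes that rose in homozygous mice, the heterozygous mean lay between the wild-type and homozygous means. These genes were picked for a gap between those means, which favours a middle position. No share over all called genes stands beside this count. The heterozygous and homozygous comparisons share the wild-type libraries.

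Between homozygous and heterozygous mice, 8 members rose and none fell, where 1.74% of all tested genes were called higher and 0.456% lower. They were Zfp711 (log2 fold change 0.99), Zfp612 (0.85), Zfp760 (0.83), Zfp800 (0.83), Zfp518a (0.78), Zfp780b (0.74), Zfp37 (0.71) and Zfp329 (0.58). Among these, Zfp711, Zfp760 and Zfp780b passed the count rule only through the mutant libraries. Zfp518a, also of the 8, was not called against wild-type mice, at 0.51 (edgeR adjusted p = 0.0659). Its heterozygous libraries, at 31.5, 25.4, 29.3 and 30.8 CPM, overlapped with the wild-type ones at 38.1, 33.3, 29.9 and 39.2 CPM. Without homozygous replicates 4 and 5, none of the 8 was called in this comparison, and neither was any of the 11335 genes then tested called higher. Leaving out heterozygous replicate 1, 2 or 4, or homozygous replicate 4 or 5, also left no member called.

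The lists that follow are set against the shares over all tested genes in the same comparison, 13.7% higher and 11.6% lower. Of 18 tested genes of the KAP1 and NuRD corepressors, through which KRAB zinc fingers act, 2 rose (11.1%) and 1 fell (5.56%) between homozygous and wild-type mice, with a median log2 fold change of 0.02. The methyl-CpG binding protein Mbd2 rose by 0.77, the remodeller Chd3 rose by 0.44 and the histone chaperone Rbbp4 fell by 0.47 on the log2 scale. KAP1 itself, encoded by Trim28 and looked up after its values were seen, had a log2 fold change of -0.46 (SE 0.245, edgeR adjusted p = 0.175). Its level was 118, 181, 146 and 118 CPM in wild-type libraries and 140, 146, 59.3 and 46.3 CPM in homozygous replicates 1, 2, 4 and 5. Only the last 2 lay under the wild-type range, and without them the value was 0.04.

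Of 15 tested genes of H3K9 and DNA methylation, 3 rose (20%) and 2 fell (13.3%), with a median of 0.24, again beside 13.7% and 11.6% over all genes. Mphosph8 and Pphln1, subunits of the HUSH silencing complex, rose by 1.66 and 0.71 on the log2 scale, and the remodeller Atrx rose by 1.09. The H3K9 methyltransferase Suv39h1 fell by 0.78 on the log2 scale. Without homozygous replicates 4 and 5, Atrx (0.96), Mphosph8 (1.01), Mbd2 (0.66) and Chd3 (0.56) were still called, while Pphln1 (0.40), Suv39h1 (-0.61) and Rbbp4 (-0.40) were not, with edgeR adjusted p of 0.062, 0.14 and 0.116. Of 106 other zinc finger genes, 16 rose (15.1%) and 2 fell (1.89%), with a median of 0.12, and Plagl1 (1.80), Klf7 (1.53), Klf9 (1.50) and Zscan21 (1.34) had the smallest p. Of the 190 Zfp genes under the count threshold that could be tested, 21 rose (11.1%) and 10 fell (5.26%), with a median of 0.08. Zfp712 (1.43), Zfp458 (1.28), Zfp182 (1.19) and Zfp35 (0.82) led by p. No difference between these lists and the 84 genes was tested.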

How the data were processed

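Hypothalamus RNA of 12 mice was reverse transcribed and amplified with a NuGEN Ovation V2 kit and read on a SOLiD 5500xl, per the labels' protocols. The authors deposited raw counts per gene symbol, and the submitters' processing notes name the build mm10. Which aligner, counter, annotation and strand setting they used is not given in the sources used here. Per the growth protocol, hypothalami came from more animals per genotype than the 4 of the design, and it speaks of both genotypes where the design has 3.

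Counts were fitted with edgeR 4.0.16 (R 4.3.3; TMM factors 0.908 to 1.08, filterByExpr, quasi-likelihood F test, all 12 libraries by genotype), and calls required a p under 0.05 after Benjamini-Hochberg adjustment over 10737 genes (common biological coefficient of variation 0.148). The script was tested on simulated data. DESeq2 1.42.0 and limma 3.58.1 (voom with sample quality weights), other scaling, no filter, a replicate block, single-library omissions, base composition corrections and other count thresholds were alternatives. Symbols were matched to GENCODE M21 (79 members directly, 5 by an older symbol), and 98.9% of tested genes had a GC value. Shared sequence was counted in 75-base runs.

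The members, gene lists, roles and tests were chosen with earlier results of these data known, and the roles were revised after the counts were read. Named genes are the 12 called members with the largest change each way, the 5 with the highest and lowest level per length, 3 on each side of the threshold, up to 4 per list by p, 6 uncalled members with intervals closest to 0, and members of each role. Zfp574, Zfp871, Zfp518b, neighbouring members and the members outside these rules that stand in full lists were named after their values were seen.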

Additional observations from a re-analysis of the deposited data

Results flagged for a closer look

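In 5 of 123 groups of 4 libraries examined, 1 library stood far from the other 3, and chance gives about 1 in 20 such groups. Zfp445 was at 148 CPM in heterozygous replicate 1 and at 117 to 119 in the others. Zfp60 was at 85.5 CPM in the same library, against 59.7 to 61.5. Zfp521 was at 44.0 CPM in homozygous replicate 5, against 70.0 to 73.8, and Zfp952 was at 63.2 CPM there, against 45.6 to 48.6. Zfp532 was at 67.6 CPM in wild-type replicate 2, against 72.6 to 73.6.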

How the results depend on the processing

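Percentages in parentheses are the shares of all tested genes called the same way in the same setting. Between homozygous and wild-type mice, 31 Zfp genes were called higher (13.7%). This number was 17 without homozygous libraries 4 and 5 (7.15%) and 5 with the GC slope as a covariate (3.19%). It was 47 of 163 genes from 300 summed counts and 17 of 40 from 1200. When single libraries were left out, it was 27 to 35 (9.79% to 15.1%). The number called lower, 1 (11.6%), was 2 without the filter (6.95%), 5 with the GC offset (8.83%), 8 from 300 counts and 0 from 1200 counts. It was 0 without homozygous libraries 4 and 5 (4.71%), 0 with the GC covariate (1.11%), and 1 to 2 over the omissions (7.13% to 13.3%). For heterozygous against wild-type, the 0 called higher (0.512%) became 7 without the filter (1.26%), 7 with DESeq2 (3.63%) and 10 with limma-voom (2.38%). The number was 1 with the GC offset (1.15%), 9 without homozygous libraries 4 and 5 (2.63%) and 9 with only the 2 genotypes (2.56%). It was 2 with the GC covariate (1.76%), 1 from 300 counts, and 0 to 4 over the omissions (0.0272% to 1.45%). For homozygous against heterozygous, the 8 called higher (1.74%) became 14 without the filter (2.8%), 13 with DESeq2 (5.02%) and 1 with limma-voom (0.652%). The number was 2 with the GC offset (1.97%), 0 without homozygous libraries 4 and 5 (0%) and 0 with the GC covariate (0%). It was 3 from 1200 counts, and 0 to 16 over the omissions (0.0372% to 5.18%). With the replicate number as a block, and without homozygous replicate 5, the counts were 18 higher (6.86%) and 0 lower (5.12%) against wild-type mice. Against heterozygous mice, 0 were higher (0.254%). Whether the replicate numbers pair the libraries was not settled. Of 8 same-numbered pairs, 1 correlated above 0.1 (r from -0.265 to 0.337). A library correlated best with its own number in 7 of 16 cases. The cause of the differences between settings was not tested. No called gene changed sign. Single named genes kept their side of the threshold in 2225 cases, lost the call in 122 and gained it in 71.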
